A study of Mus musculus with 4 samples.

Results

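Trdc+ cells are described here, the cells of a CD8+ sort that carried mRNA of Trdc, the constant gene of the T cell receptor δ chain, and that were not of the Trdv4, Tcrg-V6 and Cd163l1 kind described for skin and mucosal γδ T cells. A cell barcode was counted as a member when it had 500 to 5000 detected genes, at most 40000 unique molecular identifiers (UMIs, each 1 captured mRNA molecule) and under 10% mitochondrial UMIs. It also had to hold at least 2 Trdc UMIs, at most 2 UMIs of Trdv4, Tcrg-V6 and Cd163l1 together, and none of the antigen-presenting and B cell genes H2-Aa and Cd79a. Of 43971 cells that passed the limits on genes, UMIs and mitochondrial share, 314 were members (0.714%), and 175 cells with more UMIs of Trdv4, Tcrg-V6 and Cd163l1 were left out. Each member carries at least 2 Trdc UMIs because the rule asked for it, so levels of the 6 genes in the rule are descriptions. Those that entered the fits over all genes, Trdc among them, count in the totals called, and nothing is read from their tests.

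The cells came from 20 female C57BL/6 mice, bought at 6 weeks of age and bearing B16F10GP melanoma, a B16F10 line transduced with a viral glycoprotein, in both flanks. Mice received local radiotherapy of the right tumor with an antibody against PD-L1 (RT + αPD-L1), RT alone, αPD-L1 alone, or no treatment (Control). On day 7 after treatment, a day the labels give for treated mice only, CD8+ PD-1+ CD44+ T cells were sorted from the tumor-draining lymph nodes (TdLN). The 5 mice of a treatment carried hashtag antibodies of their own and were pooled into 1 library, so that a treatment and its library cannot be told apart while mice within it serve as replicates. The methods also name naive CD8+ cells of untreated mice that were sorted and pooled as controls, and no label places them in or outside these libraries.

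γδ T cells carry a receptor of a γ and a δ chain in place of the α and β chains of conventional T cells, and each cell assembles its V segments by DNA rearrangement. Most circulating and lymph node γδ T cells of mice use Vγ1 or Vγ4 (here Tcrg-V1 and Tcrg-V4) and leave the thymus with an interferon-γ or interleukin-17 programme, or as naive cells. Most of them lack CD8αβ, the coreceptor of killer T cells, although activated and gut γδ T cells can carry CD8.

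RT + αPD-L1 held 77 members among 11131 cells, RT 91 among 10157, αPD-L1 67 among 12285 and Control 79 among 10398. The libraries summed to 84600548 to 97257340 UMIs, and their cells had medians of 6437 to 7040 UMIs. Members had a median of 5042 UMIs and 2031 genes, with library medians of 4699 to 5246 UMIs, and together they held 2085629 UMIs. Of the members, 274 carried 1 hashtag and were given to a mouse, 37 carried several (11.8%) and 3 had none. The cells they are compared with, called αβ cells, numbered 30550, had at least 2 UMIs of the β chain constant genes Trbc1 and Trbc2 and no UMI of the 6 genes in the rule. The αβ cells had a median of 7634 UMIs and several hashtags in 9.58%. Libraries shared 135 to 196 barcodes pairwise, none of them between 2 members.

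The δ and γ V segments told the member cells apart and were no part of the rule, apart from Trdv4 and Tcrg-V6, so the ends of their coding sequences are given first. They are the last 120 coding bases in the GENCODE M21 annotation of GRCm38 (mm10), 5′ to 3′ on the coding strand. In the γ segments below, capitals mark the bases that differ from Trgv2 at chr13:19336573-19336692 on the minus strand. They show how alike 3 of these genes are, which bears on how their UMIs can be read. Tcrg-V1 lies at chr13:19340335-19340454, Tcrg-V3 at chr13:19243182-19243301 and Tcrg-V4 at chr13:19185387-19185506, all on the plus strand.
Trgv2: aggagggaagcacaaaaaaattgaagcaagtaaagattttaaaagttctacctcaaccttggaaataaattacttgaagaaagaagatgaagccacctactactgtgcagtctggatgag
Tcrg-V1: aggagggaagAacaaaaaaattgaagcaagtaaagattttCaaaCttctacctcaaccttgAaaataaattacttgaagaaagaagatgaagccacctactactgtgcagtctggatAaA
Tcrg-V3: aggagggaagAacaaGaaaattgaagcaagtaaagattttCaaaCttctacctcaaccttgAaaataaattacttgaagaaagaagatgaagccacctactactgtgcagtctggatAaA
Tcrg-V4: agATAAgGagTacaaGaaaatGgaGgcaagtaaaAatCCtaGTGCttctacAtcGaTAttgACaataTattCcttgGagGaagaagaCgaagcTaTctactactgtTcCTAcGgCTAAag

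Tcrg-V1 differed from Trgv2 at 6 of these bases, Tcrg-V3 at 7 and Tcrg-V4 at 38. Over the whole coding sequence Trgv2 and Tcrg-V1 shared 332 of 347 aligned bases (95.7%) with an identical run of 74 bases, and Trgv2 and Tcrg-V3 shared 94.5%. Trgv2 and Tcrg-V4 shared 233 of 350 bases (66.6%) with a longest run of 13. UMIs of Trgv2, Tcrg-V1 and Tcrg-V3 are therefore uncertain between these genes, whereas those of Tcrg-V4 are not affected by this likeness.

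The δ V segments below are those read in the largest shares of members, none of them in a majority. Their capitals mark the last in-frame cysteine codon, which stands just before the joined end of the segment. Trdv2-2 lies at chr14:53961483-53961602 and Trav15-2-dv6-2 at chr14:53649875-53649994, both on the plus strand. Trdv5 lies at chr14:54148662-54148781 on the minus strand, and its gene overlaps the end of Trdc, on the plus strand, by 207 bases.
Trdv2-2: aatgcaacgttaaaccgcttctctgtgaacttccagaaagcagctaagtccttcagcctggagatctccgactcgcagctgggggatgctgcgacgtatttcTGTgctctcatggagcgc
Trdv5: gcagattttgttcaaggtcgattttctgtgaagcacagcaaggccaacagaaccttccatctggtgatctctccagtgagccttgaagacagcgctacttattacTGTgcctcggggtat
Trav15-2-dv6-2: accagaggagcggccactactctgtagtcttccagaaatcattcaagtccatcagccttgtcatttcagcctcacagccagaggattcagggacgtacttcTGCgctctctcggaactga

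The 5 δ V genes read most often shared 53.4 to 63.7% of their coding bases pairwise, so that, unlike the Trgv2 group, these 5 can be told apart from each other. Other δ V genes, Trav15-1-dv6-1 among them, were not aligned with them. Trdv2-2 UMIs were found in 31.5% of members against 2.74% of αβ cells. Trdv5 was found in 26.1% against 0.331%, and Trav15-2-dv6-2, a segment that can join either an α or a δ chain, in 15.3% against 0.367%. Trdv1 followed with 8.28% against 0.884% and Trav13-4-dv7 with 7.64% against 1.48%. At least 3 δ V UMIs were held by 69.4% of members and by 7.65% of αβ cells. This count takes in all Trdv genes and all Trav genes with dv in their name, which can join either chain. Of these Trav-dv genes, αβ cells read Trav6-7-dv9 in 4.85% and Trav14d-3-dv8 in 4.59%, against 1.59% of members for each. Which chain such a segment had joined in a cell was not tested.

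By the δ V gene that gave at least 80% of a cell's δ V UMIs, with 3 or more of them, 54 members were Trdv2-2 cells, 49 Trdv5 cells, 24 Trav15-2-dv6-2 cells, 20 Trav13-4-dv7 cells and 19 Trdv1 cells. A further 9 carried Trav15-1-dv6-1, 7 Trav21-dv12 and 1 Trav14d-3-dv8. No gene dominated in 35 members, and 96 had fewer than 3 δ V UMIs. By this 80% limit the members were spread over many δ V genes, with none dominant in more than 54 of 314 cells. Trdv2-2 was read at any level in 99 members.

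On the γ side Trgv2 was read in 61.8% of members against 2.3% of αβ cells, Tcrg-V4 in 33.1% against 0.645% and Tcrg-V1 in 29.9% against 0.72%. Tcrg-V3, the near copy of Tcrg-V1 shown above, was read in 4.14% of members and Tcrg-V7 in 2.23%, and Tcrg-V5 in none of 314. The γ constant genes Tcrg-C4, Tcrg-C2 and Tcrg-C1 were read in 28.3%, 24.5% and 20.4% of members against 0.812%, 0.733% and 0.475% of αβ cells, and Tcrg-C3 in 0.318% of members. At least 1 γ V UMI was found in 72.3% of members and 3.07% of αβ cells. The 175 left-out cells shared the reads of Trgv2 (57.7%) and of Tcrg-C4, Tcrg-C2 and Tcrg-C1 (34.9%, 28.6% and 72%). Tcrg-V4 and Tcrg-V1 were less common in them, at 13.1% and 13.7%.

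Several γ V genes were often read in the same cell: 82 members held 1, 105 held 2, 39 held 3 and 1 held 4, while 87 held none. Trgv2 with Tcrg-V1 was read in 76 members, a pair whose sequences are nearly the same. Trgv2 with Tcrg-V4, a pair that is not, was read in 85, and Tcrg-V4 without Trgv2 in 19. By a limit of 80% of at least 2 γ V UMIs, 47 members were Trgv2 cells and 8 were Tcrg-V4 cells, too few to compare their genes over mice. The γ and δ reads were found in the same cells: γ V UMIs were present in 91.7% of Trav15-2-dv6-2 cells, 89.8% of Trdv5 cells, 85% of Trav13-4-dv7 cells, 70.4% of Trdv2-2 cells and 68.4% of Trdv1 cells, against 52.1% of members with fewer than 3 δ V UMIs.

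**Figure D1:**
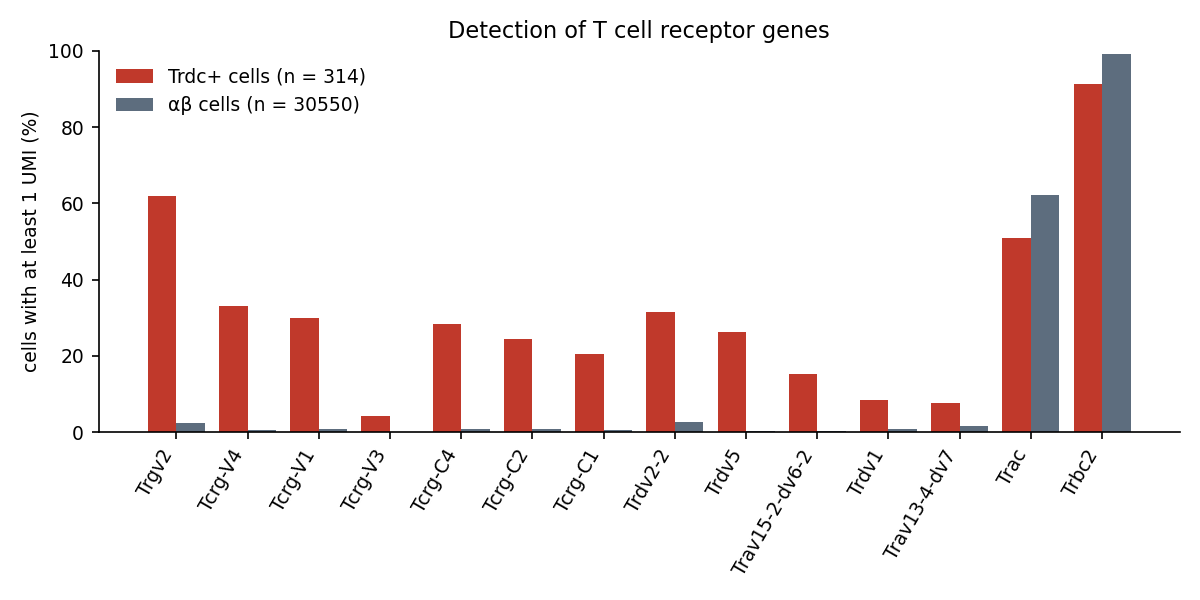
Receptor gene detection. Bars give the percent of cells with at least 1 UMI of each receptor gene, in 314 Trdc+ cells (left bar of each pair) and 30550 αβ cells (right bar). The γ and δ genes are higher in Trdc+ cells, with Trgv2 at 61.8% against 2.3%, while Trbc2 is close to 100% in αβ cells and at 91.4% in Trdc+ cells.

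The label of γδ T cells was met by these γ and δ reads but not by all of the receptor genes. Trac, the α chain constant gene, was read in 51% of members against 62.1% of αβ cells, and Trbc2 in 91.4% against 99.1%. V segments of the β chain, at 3 or more UMIs, were held by 50.6% of members against 95.5% of αβ cells. Whether they were joined into a β chain was not tested. V segments that join only α chains were held at 3 or more UMIs by 20.7% of members against 55.9% of αβ cells. The 175 left-out cells of the Trdv4, Tcrg-V6 and Cd163l1 kind had shares near those of members. Trac was read in 45.1% of them and Trbc2 in 91.4%, with Vβ at 3 UMIs in 45.7% and α-only V segments in 24%. Fcer1g, an Fc receptor signaling chain given as a marker of these cells, was read in 8 members (2.55%) against 1.41% of αβ cells, so this marker did not describe them.

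Sorted by these segments, with δ V counted as above to take in Trav-dv genes, 122 members (38.9%) held δ V only. A further 66 (21%) held δ V and Vβ, and 27 (8.6%) δ V, Vβ and Vα. Vβ only was held by 35 (11.1%), Vβ and Vα by 31 (9.87%), and none at this level by 26 (8.28%). The 27 members with all 3 kinds had a median of 13304 UMIs and several hashtags in 40.7%, whereas the 122 with δ V alone had 4151 UMIs and several hashtags in 3.28%. Members with several hashtags had a median of 10443 UMIs and Vβ in 81.1%, against 4714 UMIs and 46.7% in members with 1 hashtag. No doublet caller was run. Cells with several hashtags took no part in the comparisons over mice, and how many members are doublets within 1 mouse was not tested. By library δ V was held by 58.4% of members in RT + αPD-L1, 73.6% in RT, 70.1% in αPD-L1 and 74.7% in Control, and Vβ by 57.1%, 53.8%, 53.7% and 38% in the same order.

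Cells chosen by a B cell gene gave levels to set beside such shares. In 88 cells with at least 3 UMIs of the B cell gene Cd79a, and a median of 3497 UMIs, Trdc was read in 3.41%, γ V genes in 2.27%, Vβ at 3 UMIs in 18.2%, Trac in 17% and Cd8b1 in 28.4%. Cd3e was read in 29.5% of these cells. Whether their T cell reads came from free RNA or from doublets was not tested. The γ and δ shares of members lay above these levels, as did their Trac and Vβ shares. Some defining markers of other cells were rare among members, from which the rule had left out cells with H2-Aa or Cd79a UMIs. A UMI of the myeloid gene Lyz2 was held by 4, of Csf1r by 1, of the natural killer gene Ncr1 by 2 and of the B cell gene Ms4a1 by 1. None held a UMI of the innate lymphoid gene Il1rl1 or the melanoma genes Mlana and Tyr. The other innate lymphoid markers, Rora and Gata3, were read in 11.8% and 22% of members, against 12.4% and 22.2% of αβ cells. Among the 4 with Lyz2, 1 cell held 287 UMIs of it. Less specific markers were common in both classes, with Ighm in 65.9% of members against 64.4% of αβ cells, Cd79b in 26.1% against 24.4%, Cst3 in 40.1% against 50%, Eomes in 16.2% against 23.1% and Cd68 in 6.05% against 8.08%. The CD4 gene was read in 1 member and Foxp3 in 3.

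The rule's limits passed through a continuum. Trdc was at exactly 2 UMIs in 157 members, at 3 in 65, at 4 in 42, at 5 in 20 and at 6 or more in 30. Just inside, δ V was held by 65.6%, γ V by 70.7% and Vβ by 59.9% of the 157 cells with 2 Trdc UMIs. Just outside, in 406 cells with 1 Trdc UMI, the shares were 46.1%, 48.5% and 68.7%. At the other limit 5 members had 2 UMIs of Trdv4, Tcrg-V6 and Cd163l1, and 2 cells with 3 were left out.

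Whether treatment changed how common these cells were was asked over mice. In RT + αPD-L1 mice 1 to 5, members made up 1.17%, 0.306%, 0.836%, 0.505% and 0.758% of the mouse's cells. In RT mice the shares were 0.463%, 0.618%, 0.772%, 2.07% and 1.18%, and the highest rested on 3 members among 145 cells. In αPD-L1 mice they were 0.36%, 0.412%, 0.792%, 0.554% and 0.353%. Control mice had 0.835%, 0.614%, 0.582%, 0.605% and 1.06%. The 4 ranges overlapped, and the RT + αPD-L1 and RT mice varied most. The mean was 0.715 ± 0.33% in RT + αPD-L1, 1.02 ± 0.644% in RT, 0.494 ± 0.185% in αPD-L1 and 0.738 ± 0.205% in Control (SD, n = 5 mice each).

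None of 5 comparisons of these shares passed a two-sided exact permutation test, whose smallest possible p was 0.00794. αPD-L1 stood lowest against Control, by −0.245 percentage points (exact permutation p = 0.0714, Benjamini-Hochberg adjusted over 5 comparisons 0.357). RT + αPD-L1 differed from Control by −0.0237 points (exact permutation p = 0.897, adjusted 0.897) and RT by 0.282 (exact p = 0.452, adjusted 0.565). RT + αPD-L1 differed from RT by −0.306 points (exact p = 0.429, adjusted 0.565) and from αPD-L1 by 0.221 (exact p = 0.254, adjusted 0.565). Leaving out 1 mouse at a time moved the RT against Control difference between 0.0205 and 0.422 points. As 1 library over all its cells the share was 0.692% in RT + αPD-L1 (95% exact binomial interval 0.546 to 0.864), 0.896% in RT (0.722 to 1.1), 0.545% in αPD-L1 (0.423 to 0.692) and 0.76% in Control (0.602 to 0.946), where the intervals cover counting error only.

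**Figure D2:**
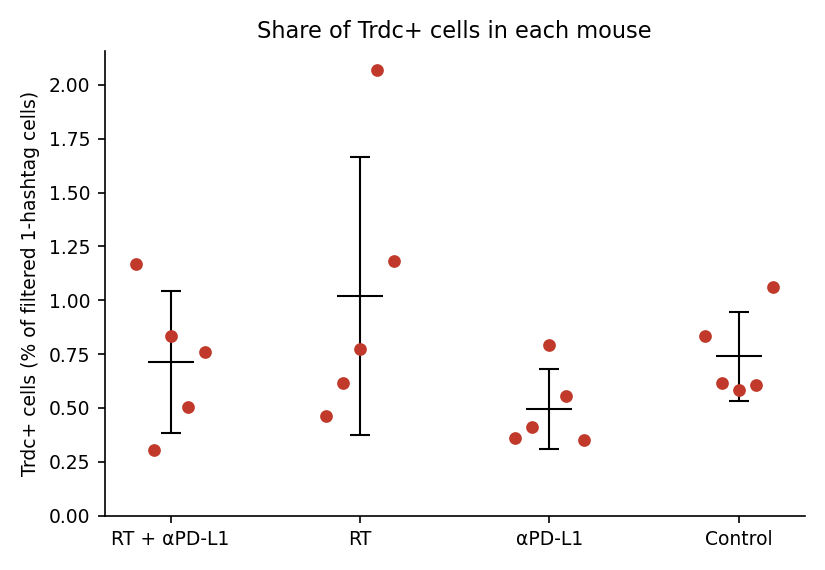
Share of Trdc+ cells. Points are mice, giving Trdc+ cells as a percent of the mouse's filtered cells, and bars are treatment means with SD (n = 5 each). The 4 treatments overlap, and the RT mouse at 2.07% rests on 3 cells.

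The genes of Trdc+ cells were then compared with those of αβ cells of the same mice. UMIs were summed per mouse and cell class for the 10 mice with at least 10 members (RT + αPD-L1 mouse 3, RT mice 2, 3 and 5, αPD-L1 mice 2, 3 and 4, Control mice 1, 2 and 5) and tested with edgeR's quasi-likelihood test with a term for the mouse. The sums held 13 to 40 members and 60912 to 255661 UMIs a mouse. Of 11471 genes, 264 were higher in Trdc+ cells (2.3%) and 894 lower (7.79%) at a Benjamini-Hochberg adjusted p under 0.05, with a median log2 difference of −0.10 over all genes. The balance depended on the scaling: 22.8% of calls were higher with the TMM scaling used, 44.3% with edgeR's RLE scaling (383 higher, 481 lower, median 0.03) and 55.5% with DESeq2 (412 higher, 330 lower, median 0.05). The differences below are log2 values with their SE, adjusted p from edgeR, and are read against the median of −0.10. Levels are CPM, the UMIs of a gene scaled to 1e+06 UMIs of the mouse's sum.

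The receptor genes led the list. The 3 γ constant genes that could be tested beside Trdc were higher by 5.80 to 6.15 log2 units, which followed from the share of cells above. The α constant gene Trac was not called. The αβ cells had been chosen by their Trbc1 and Trbc2 UMIs, so nothing is read from the tests of these 2 genes. Of 16 genes of the CD3 complex and its nearby kinases and adaptors, 2 were higher and 3 lower (4 and 1 with RLE scaling). The lower ones were Cd5 (−0.50) and Cd6 (−0.48), which dampen receptor signals, and the Src-family kinase Fyn (−0.44). Cd3e itself was read in 99% of members and 99.3% of αβ cells.

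Both chains of the CD8 coreceptor were lower. Cd8b1 had 367 (lowest), 820 (median) and 1006 CPM (highest mouse) in Trdc+ cells, against 1172, 1254 and 1293 CPM in αβ cells. The ranges did not overlap, and Cd8b1 was lower in Trdc+ cells of 10 of 10 mice (log2 difference −0.98 ± 0.09, edgeR adjusted p = 2.5e-16). Cd8a had 201, 467 and 726 CPM against 652, 719 and 751 CPM and was lower in 10 of 10 mice (−0.81 ± 0.10, edgeR adjusted p = 4.1e-10). A Cd8b1 UMI was still found in 76.8% of members against 97.5% of αβ cells and a Cd8a UMI in 64.6% against 93.3%. In the 88 cells chosen by Cd79a above, Cd8b1 was read in 28.4%.

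Outside the receptor 5830411N06Rik and Rbpms had the highest detection in Trdc+ cells relative to αβ cells. The left-out Trdc+ cells of the Trdv4, Tcrg-V6 and Cd163l1 kind were not part of this comparison. 5830411N06Rik, a gene of the scavenger receptor group on chromosome 7, was read in 22.6% of members against 0.556% of αβ cells. Its level was 26.2, 77.3 and 135 CPM (lowest, median and highest of 10 mice) in Trdc+ cells and 0.613, 1.4 and 2.23 CPM in αβ cells, with no overlap (5.61 ± 0.27, edgeR adjusted p = 7.24e-36). Rbpms, an RNA-binding protein gene on chromosome 8, was read in 14% against 0.678%, with 8.45, 26.7 and 52.4 CPM against 0.493, 0.671 and 1.03 CPM (5.07 ± 0.35, edgeR adjusted p = 1.08e-23). Both were higher in all 10 mice, and each was found in a minority of members, in 71 and 44 cells.

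Ccr9, the receptor for the gut and thymus chemokine CCL25, was read in 30.6% of members against 9.74% of αβ cells. Its level was 17.5, 89.5 and 157 CPM against 7.92, 14.6 and 21.3 CPM, higher in 10 of 10 mice with an overlap at the low end (2.47 ± 0.20, edgeR adjusted p = 2.57e-19). Dntt, which adds bases at receptor joins, was read in 10.2% against 1.06%, with 0, 20.7 and 91.1 CPM against 0.768, 1.26 and 1.93 CPM, and was higher in 8 of 10 mice (edgeR adjusted p = 1.47e-14). Ly6d was higher by 4.36 ± 0.36 (edgeR adjusted p = 5.53e-19, 9 of 10 mice), in 19 cells of which 1 held 19 UMIs. Ly6c1 was higher by 3.58 ± 0.34 (edgeR adjusted p = 1.13e-15, 7 of 10 mice), and the transcription factor Tcf4, known in B cells and plasmacytoid dendritic cells, by 2.68 ± 0.40 (edgeR adjusted p = 1.44e-07, 10 of 10 mice). Of 6 B cell markers tested 1 was higher, the immunoglobulin gene Ighd (1.95, edgeR adjusted p = 0.00373), read in 12 members and higher in 6 of 10 mice, and its call was lost after thinning (adjusted p = 0.492) and in δ V members (0.231).

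Of 25 transcription factors tied to γδ and innate-like lineages, 6 were higher and 2 lower, with a median of 0.19 (8 and 2 with RLE scaling). Sox4, a factor of early T cell and γδ development, had 48.5, 150 and 373 CPM in Trdc+ cells against 17.1, 29.3 and 46.5 CPM in αβ cells. The ranges did not overlap (2.06 ± 0.15, edgeR adjusted p = 2.37e-22, 123 members with a UMI). Ikzf2, which encodes Helios, had 113, 260 and 423 CPM against 77.9, 94.8 and 127 CPM and was higher in 10 of 10 mice (1.16 ± 0.13, edgeR adjusted p = 9.44e-13). Hopx, a cofactor of effector T cells, had 33.1, 62.5 and 115 CPM against 95.6, 111 and 253 CPM and was lower in 10 of 10 (−1.07 ± 0.16, edgeR adjusted p = 1.66e-07), and Id2, a factor of effector and innate-like cells, was lower by 0.59 log2 units. The remaining higher factors rested on few cells or mice. Zbtb16, which encodes PLZF of innate-like T cells, was read in 9 members and was higher in 3 of 10 mice (2.87, edgeR adjusted p = 0.0047, at most 0.147 without 1 mouse). Sox13, a factor of interleukin-17 γδ T cells, was read in 6 members, and Maf (1.30) and Id3 (0.35) lost the call without 1 mouse, at adjusted p of up to 0.138 and 0.096 by edgeR.

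Of 16 genes of the interleukin-17 programme, 8 were higher and 1 lower, with a median of 1.20, and 3 were higher and 2 lower after each cell was thinned to 3000 UMIs. The list holds 5830411N06Rik, described above, which kept its call after thinning, and Tmem176a (1.68), read in 17 members and higher in 7 of 10 mice. Other members rested on few cells. Il17a, the cytokine itself, was read in 3 members, and 17 of its UMIs stood in 1 cell of RT mouse 5, at 66.5 CPM there. The kinase gene Blk was read in 8 members and the receptor gene Il23r in 1. Aqp3, a glycerol channel, was lower by 1.37 log2 units.

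The cytotoxic and natural killer genes were not raised throughout. Of 22 genes of the interferon-γ and cytotoxic programme, 3 were higher and 3 lower (none higher and 3 lower with DESeq2). The higher ones, the chemokine genes Ccl3 (1.18) and Ccl5 (0.49) and the granzyme gene Gzma (0.81), lost the call without 1 mouse, at adjusted p of up to 0.131, 0.408 and 0.794 by edgeR, and Gzma was higher in 5 of 10 mice. Gzmb had 0, 1.96 and 234 CPM in Trdc+ cells against 6.76, 22.9 and 846 CPM in αβ cells and was lower in 9 of 10 mice (−2.09 ± 0.26, edgeR adjusted p = 5.58e-10). Gzmk (−2.47) and the chemokine receptor Cxcr3 (−0.98) were lower too. Klrg1, a receptor of effector cells, had 0 UMIs among 1333801 summed over the 10 mice in Trdc+ cells, against 4.53 CPM in αβ cells. It was thus at least 2.01-fold lower by a floor of 3 counts over the group, and its call was lost without 1 mouse (edgeR adjusted p up to 0.363).

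Of 17 other natural killer receptors and adaptors, 8 were higher and 2 lower, with a median of 1.86 (3 higher and none lower with DESeq2). Tyrobp and Fcer1g, the signaling adaptors of natural killer and myeloid receptors, were higher by 2.78 and 2.88, but Tyrobp was read in 12 members, with up to 54 UMIs in a cell, and Fcer1g in 8, with 40 UMIs in 1 cell. Ncr1, Klrb1a and Klri2 were each read in 2 members. In the 188 members with δ V and without α-only V segments, 1 of 12 natural killer genes was higher and 1 lower, against 9 of 16 interleukin-17 genes higher and 1 lower.

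Some genes of naive and recirculating lymphocytes were higher. Klf2, the factor that keeps T cells recirculating, had 734, 840 and 973 CPM in Trdc+ cells against 362, 447 and 545 CPM in αβ cells. The ranges did not overlap, and the difference was found in 10 of 10 mice (0.67 ± 0.09, edgeR adjusted p = 6.24e-10). Its target S1pr1, the receptor that lets lymphocytes leave a node, had 93, 160 and 324 CPM against 67.2, 81 and 92.8 CPM (0.77 ± 0.14, edgeR adjusted p = 1.69e-05), again without overlap. After thinning to 3000 UMIs Klf2 kept its call (0.44, edgeR adjusted p = 0.000137) while S1pr1 (0.48, adjusted p = 0.0773) did not. In all 5 of 15 homing and egress genes were higher, among them Klf3 (0.71, and 0.20 with adjusted p = 0.602 after thinning), and 3 lower, among them the integrin gene Itgb1. Itgb1 had 42.2, 118 and 389 CPM against 209, 298 and 415 CPM and was lower in 8 of 10 mice (−1.12 ± 0.14, edgeR adjusted p = 8.86e-10).

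Of 16 memory and stem genes 5 were higher, among them the survival gene Bcl2 (0.63), Foxo1 (0.55), a factor of quiescent T cells, and Myb (0.56), and 1 was lower, the receptor gene Slamf6 (−0.77, edgeR adjusted p = 1.96e-05). After thinning 2 were higher and 2 lower, and Foxo1 (adjusted p = 0.215) and Myb (0.337) lost their calls. Tcf7, the factor that marks stem-like T cells, was read in 91.4% of members and 91% of αβ cells. The sort itself was made on CD44 and PD-1 protein. Their genes were read in 18.5% of members against 34.9% of αβ cells for Cd44 and in 13.4% against 15.9% for Pdcd1. Cd44 had 16.7, 39.4 and 98.5 CPM against 48.8, 61 and 68.4 CPM and was lower in 8 of 10 mice (−0.77 ± 0.20, edgeR adjusted p = 0.00479).

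**Figure D3:**
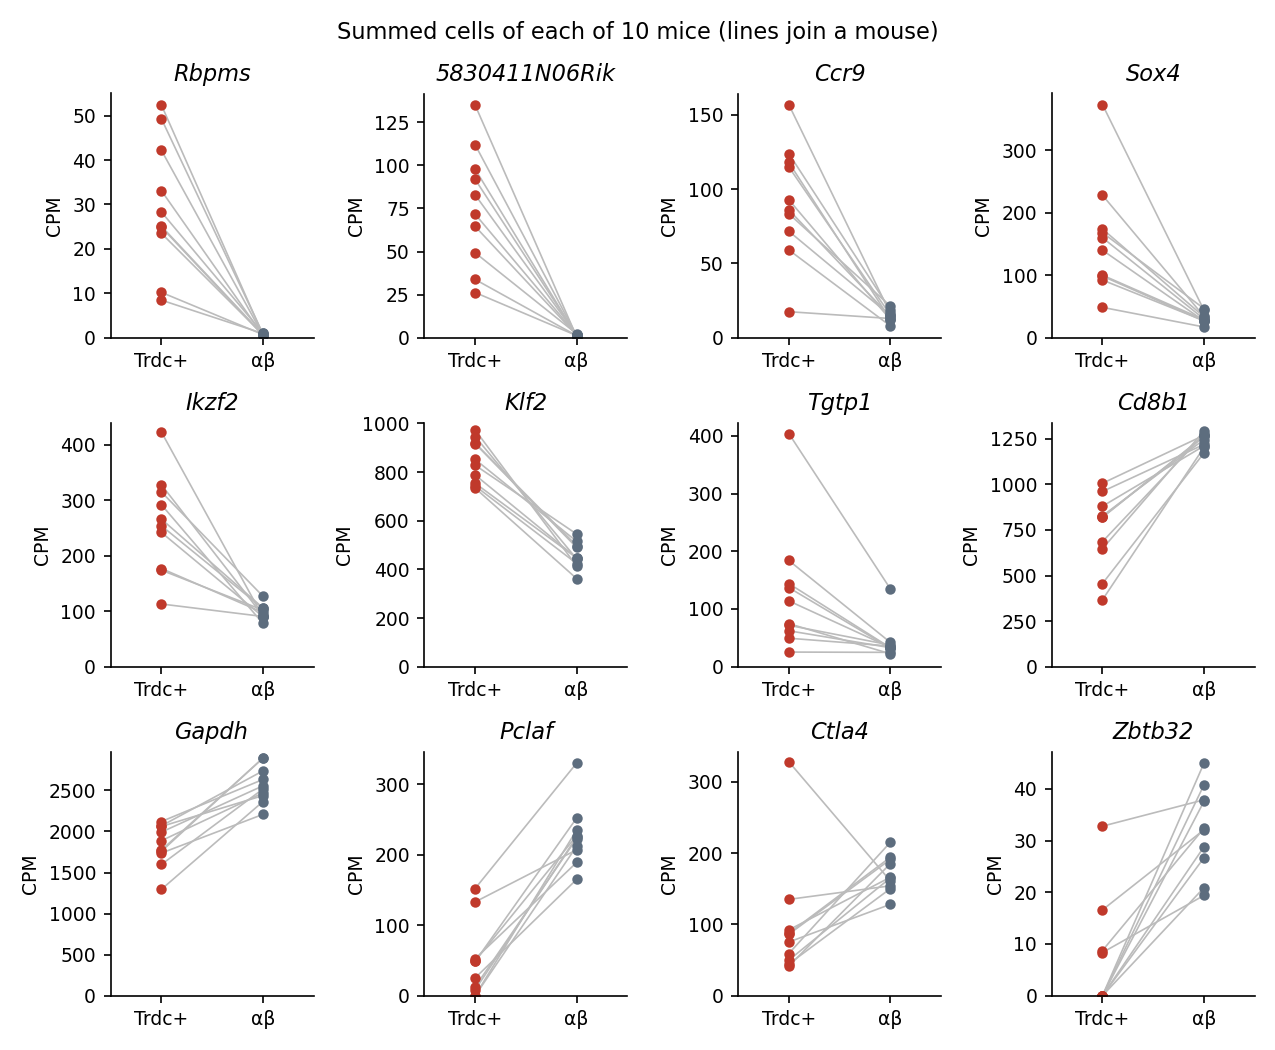
Genes per mouse. Each panel gives 1 gene in CPM, with Trdc+ cells left and αβ cells right and a line joining the sums of each of the 10 mice. Lines fall to the right for the genes higher in Trdc+ cells, such as Klf2, and climb for Cd8b1, Gapdh and Pclaf, whose ranges do not overlap.

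Among 27 immediate early and antigen-receptor response genes, 7 were higher and 5 lower (8 and 2 with RLE scaling). Dusp5, a phosphatase of ERK kinases, had 78.2, 101 and 182 CPM in Trdc+ cells against 37.6, 41.5 and 54.6 CPM in αβ cells, without overlap (1.16 ± 0.15, edgeR adjusted p = 3.86e-09). Nr4a1, induced by receptor signals, had 25.1, 109 and 205 CPM against 34.1, 41.4 and 47.7 CPM and was higher in 9 of 10 mice (1.10 ± 0.17, edgeR adjusted p = 2.08e-07). Rgs2 (1.13) and Jun (0.82) were higher, whereas Phlda1 (−1.84), Cd83 (−1.53), Irf4 (−1.02) and Myc (−0.58) were lower.

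Receptors that inhibit or costimulate T cells were mostly lower where they were called. Of 22 inhibitory receptors and exhaustion regulators 6 were lower and none higher, with a median of −0.76 (1 higher and 4 lower with RLE scaling, 10 of 19 lower after thinning). Ctla4, the brake on CD28 costimulation, had 41.4, 80.6 and 328 CPM in Trdc+ cells against 128, 166 and 215 CPM in αβ cells. It was lower in 9 of 10 mice (−1.17 ± 0.16, edgeR adjusted p = 1.18e-08), the exception being αPD-L1 mouse 4 with 328 CPM against 161. Cd200 had 0, 25.8 and 49.3 CPM against 39.6, 60.3 and 70.9 CPM and was lower in all 10 mice (−1.50 ± 0.24), and Btla (−1.14), Izumo1r (−1.05) and Lag3 (−0.71) followed. Of 15 costimulatory and TNF receptor genes 5 were lower and none higher, among them Icos (−1.08), Tnfrsf4 (−1.43) and Cd40lg (−2.43).

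Genes of cell division were lower nearly throughout the list. Of 30 genes of S phase and mitosis, 27 were lower and none higher, with a median of −1.25, and 23 to 28 were lower with RLE scaling, with DESeq2 and without each mouse in turn. After thinning to equal depth 19 were lower. Summed over the list, Control mouse 5 alone of these 10 mice was higher in Trdc+ cells, at 4683 against 4541 CPM. Mice with at least 5 but fewer than 10 members were divided. Control mouse 3 and RT + αPD-L1 mice 1 and 5 were higher in Trdc+ cells, and RT + αPD-L1 mice 2 and 4 were lower. Pclaf, a partner of the replication clamp, had 0, 36.8 and 152 CPM in Trdc+ cells against 165, 224 and 330 CPM in αβ cells, with no overlap (−2.26 ± 0.19, edgeR adjusted p = 3.75e-18). Rrm2, a subunit that makes DNA building blocks, had 0, 16.5 and 93 CPM against 87.9, 113 and 169 CPM and was lower in 10 of 10 mice. Mki67 (−1.07) and Top2a (−1.26) were lower, and a Mki67 UMI was found in 11.7% of members against 22.2% of αβ cells in RT + αPD-L1, 11% against 21.1% in RT, 16.4% against 24.7% in αPD-L1 and 12.7% against 25.5% in Control, at the depths as sequenced.

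Of 17 glycolysis genes 9 were lower and none higher (5 lower with RLE scaling, 3 with DESeq2). Gapdh had 1295, 1830.5 and 2121 CPM against 2208, 2537 and 2894 CPM, with no overlap (−0.71 ± 0.07, edgeR adjusted p = 1e-13), and Tpi1 (−0.91) and Ldha (−0.55) followed. Beyond these lists Zbtb32, a zinc finger factor induced in activated lymphocytes, had 0, 0 and 32.8 CPM in Trdc+ cells against 19.4, 32.2 and 45 CPM in αβ cells and was lower in 10 of 10 mice (−2.97 ± 0.43, edgeR adjusted p = 5.33e-08).

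Genes induced by interferon-γ were called higher more often than the wider list of interferon-stimulated genes. Of 20 interferon-γ-inducible GTPases and regulators 7 were higher and none lower, with a median of 0.46, and 2 were higher after thinning. Tgtp1, a GTPase of cell-autonomous defence, had 25.3, 94.1 and 404 CPM in Trdc+ cells against 22.3, 33.1 and 135 CPM in αβ cells and was higher in 10 of 10 mice (1.45 ± 0.16, edgeR adjusted p = 1.13e-12). Iigp1 (1.40) and Gbp6 (0.70) are of the same group. Of 49 interferon-stimulated genes 3 were higher (Ifi44, Slfn5 and Irf7) and 3 lower (5 and 2 with RLE scaling), with a median of 0.16. Over all genes 2.3% were higher and 7.79% lower, so no direction of this list is read from its few calls. The lower genes included Ifi27l2a with 398, 748 and 2581 CPM against 830, 1206 and 4168 CPM (−0.83, lower in 9 of 10 mice). Of 21 cytokine receptor and feedback genes 3 were higher and 1 lower (6 and 1 with RLE scaling). Socs3, a brake on cytokine signals, had 49.3, 75.3 and 254 CPM against 21.3, 26.8 and 89.1 CPM (1.51 ± 0.17, edgeR adjusted p = 2.24e-12), and Ifngr1, a chain of the interferon-γ receptor, 117, 214 and 456 CPM against 87.5, 93.2 and 265 CPM (0.79), each higher in 10 of 10 mice. Il18r1 was lower by 1.37 log2 units.

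**Figure D4:**
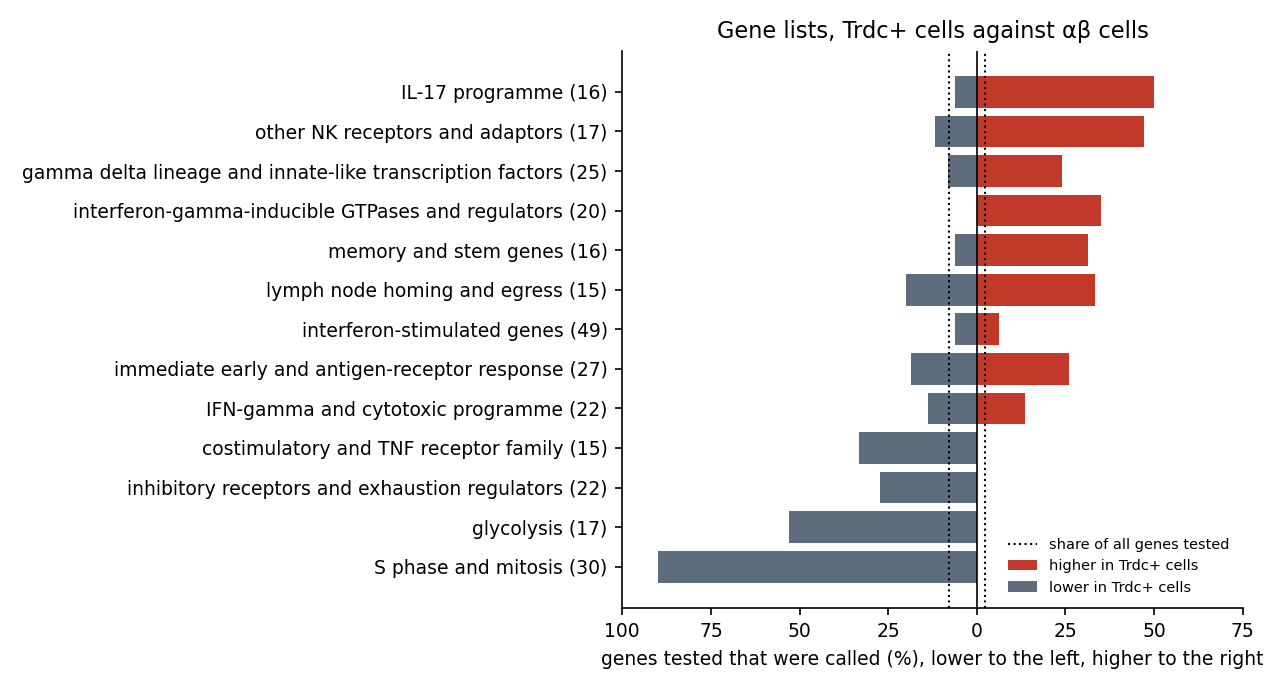
Gene lists, Trdc+ cells against αβ cells. Bars give the percent of a list's tested genes that were called higher (to the right) or lower (to the left) by edgeR, and dotted lines mark the share over all genes, 2.3% and 7.79%. The S phase and mitosis list (27 of 30 lower) stands out to the left and the interleukin-17 list (8 of 16 higher) and other natural killer receptors (8 of 17) to the right.

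Treatments were then compared within Trdc+ cells, over 3282 genes and the same 10 mice. RT against Control gave no call in either direction, with 171 genes at an unadjusted p under 0.05 and none called by DESeq2. αPD-L1 against Control also gave none, with 181 at an unadjusted p under 0.05 and none by DESeq2. RT + αPD-L1 against Control gave 40 higher genes (1.22%) and none lower. It gave 45 higher (1.37%) and 1 lower (0.0305%) against RT, and 27 higher (0.823%) and none lower against αPD-L1. DESeq2 called 1, 2 and 1 gene in these 3 comparisons. At 10 members a mouse the combination was represented by mouse 3 alone, with 40 members, whose spread was assumed to be like that of the other groups, so these counts are calls about 1 mouse. That mouse stood apart in its αβ cells too, with 846 CPM of the granzyme gene Gzmb against 26.7 to 56.5 CPM in the other combination mice and 6.76 to 19.3 CPM in Control mice 1, 2 and 5. With at least 5 members a mouse (5 RT + αPD-L1, 3 RT, 3 αPD-L1 and 4 Control mice, 2151 genes) the combination gave 10 higher genes against Control, of which 9 were among the 40. That limit gave 1 higher and 1 lower gene against RT and none against αPD-L1. The count of 10 became 1 without RT + αPD-L1 mouse 3 or without Control mouse 1 and 33 without RT + αPD-L1 mouse 1.

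Interferon-stimulated genes made up 18 of the 40 genes higher in combination mouse 3 against Control. The list had 39 tested genes, with a median log2 difference from Control of 2.15 over the 39 (all genes −0.04), and 21 were higher against RT and 11 against αPD-L1, in comparisons that share the combination mouse. With at least 5 members a mouse, 5 of 28 were higher against Control. None of 39 was called in RT or αPD-L1 against Control, with medians of 0.08 and 0.23. Of 16 interferon-γ-inducible GTPases, 8 were higher against Control (median 2.07) at 10 members a mouse and none of 11 at 5.

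Irf7, the factor that amplifies type I interferon, had 58, 484, 658, 547 and 205 CPM in RT + αPD-L1 mice 1 to 5. It had 149, 41 and 117 CPM in RT mice, 169, 150 and 115 CPM in αPD-L1 mice and 74.6, 127, 77.4 and 166 CPM in Control mice. Of the combination mice, 4 stood above every other mouse with at least 5 members, and mouse 1, with 6 members, stood below most. The difference from Control was 2.49 for mouse 3 alone, and 1.93 over the mice with 5 members (edgeR adjusted p = 0.0405). Bst2, which tethers budding viruses, had 29, 892, 792, 515 and 595 CPM in the combination, 199, 102 and 168 CPM in RT, 110, 150 and 148 CPM in αPD-L1 and 157, 84.4, 129 and 262 CPM in Control. The same 4 mice were highest and mouse 1 was lowest of the mice with at least 5 members. The difference from Control was 2.30 for mouse 3 alone, and 1.94 over the mice with 5 members (edgeR adjusted p = 0.0405).

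H2-T23, the nonclassical class I gene for Qa-1, was the clearest over mice. It had 667, 866, 917, 805 and 669 CPM in RT + αPD-L1, 461, 522 and 434 CPM in RT, 541, 501 and 460 CPM in αPD-L1 and 381, 363, 464 and 384 CPM in Control. All 5 combination mice stood above every other mouse with at least 5 members. The difference from Control was 1.35 for mouse 3 alone, and 1.08 over the mice with 5 members (edgeR adjusted p = 0.00791). The αβ cells of the combination mice had 464, 663, 718, 544 and 536 CPM of H2-T23, against 395, 437, 465 and 467 CPM in Control, where mouse 1 overlapped. Isg15, a ubiquitin-like protein, had 0, 1274, 1074, 161 and 260 CPM in the combination, 62.2, 30.7 and 133 CPM in RT, 76.1, 134 and 32.8 CPM in αPD-L1 and 0, 50.6, 206 and 131 CPM in Control. Its combination mice overlapped with Control, and the call of mouse 3 (4.22 ± 0.52, edgeR adjusted p = 3.67e-05) was not made over the mice with 5 members (3.05, adjusted p = 0.0713). The other genes called at both limits were Zbp1, Trim30a, Gm4070, Ifi27l2a, Ccl4 and Myc.

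As a share of all members of a library, Isg15 was read in 66.2% of Trdc+ cells in RT + αPD-L1 (exact interval 54.6 to 76.6), 26.4% in RT (17.7 to 36.7), 25.4% in αPD-L1 (15.5 to 37.5) and 19% in Control (11 to 29.4). These intervals pool the cells of a library and cover counting error only, and 40 of the 77 combination members came from mouse 3. In αβ cells the shares were 66.6%, 24.8%, 25.7% and 29.2% in the same order. Summed over the whole list, interferon-stimulated genes reached 3739.7, 16004, 14208, 7628 and 7643 CPM in Trdc+ cells of the combination mice. The sums were 3896, 3165 and 3825 CPM in RT, 5434, 4185 and 4203 CPM in αPD-L1 and 2444, 3680.1, 3251 and 4377 CPM in Control. The αβ cells of the combination mice had 3731, 10268, 13379, 6469.7 and 6468 CPM, so mouse 1 was low in both cell classes and mice 2 and 3 high in both.

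**Figure D5:**
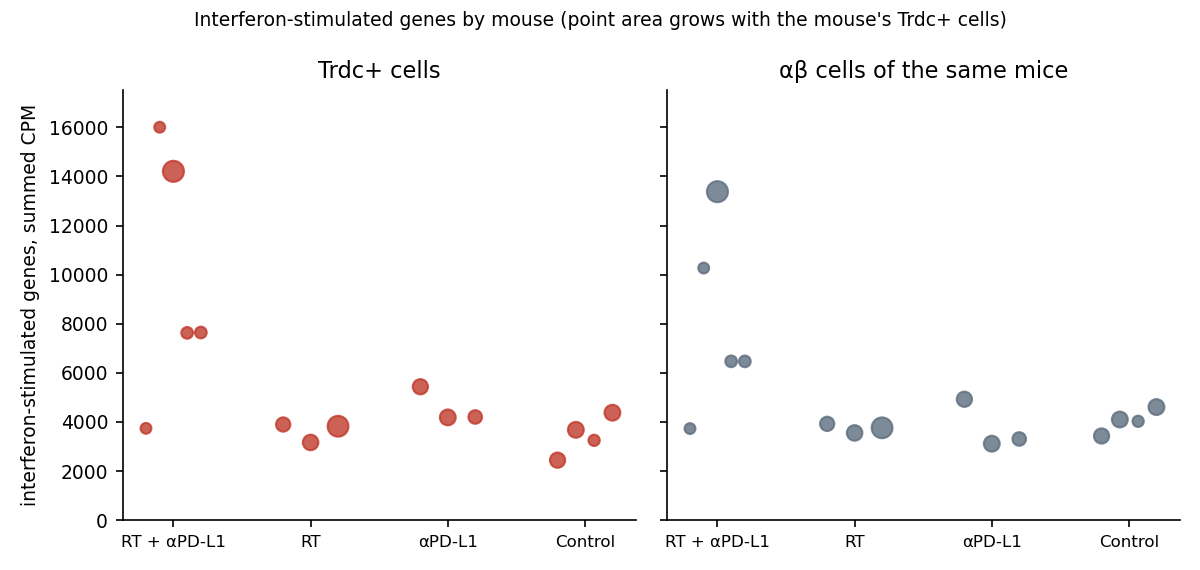
Interferon-stimulated genes by mouse. Points give the summed CPM of the list in each mouse with at least 5 Trdc+ cells, for Trdc+ cells (left panel) and αβ cells of the same mice (right panel), with point area growing with the number of Trdc+ cells. In Trdc+ cells 4 of 5 RT + αPD-L1 mice, at 7628 to 16004, lie above the other mice, and mouse 1 lies among them at 3739.7.

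Effector genes called in the combination rested on mouse 3 or on few cells. Gzma, a granzyme gene, had the largest difference from Control (6.23, edgeR adjusted p = 3.67e-05), with 0, 102, 473, 161 and 0 CPM in the combination, 12.4, 225 and 113 CPM in RT, 50.7, 16.7 and 16.4 CPM in αPD-L1 and 16.6, 0, 77.4 and 0 CPM in Control. It was also called against RT (1.99) and αPD-L1 (3.99), and 69 of the 117 UMIs of mouse 3 stood in 1 cell. A Gzma UMI was found in 23.4% of members in RT + αPD-L1, 7.69% in RT, 11.9% in αPD-L1 and 5.06% in Control, against 15.5%, 2.63%, 3.44% and 1.27% of αβ cells. Gzmb had 234 CPM in mouse 3, in 9 members, 0 in the other 4 combination mice, and at most 8.45 CPM elsewhere. Ccl4, a chemokine of activated T cells, had 203, 0, 1046, 0 and 1358 CPM in the combination, 37.3, 20.5 and 15.6 CPM in RT, 127, 16.7 and 82.1 CPM in αPD-L1 and 99.4, 16.9, 0 and 0 CPM in Control, and 1 cell held 250 of the 259 UMIs of mouse 3. Xcl1, which draws cross-presenting dendritic cells, had 551, 0, 1147, 32.2 and 3068 CPM in the combination, with 266 of the 284 UMIs of mouse 3 and 162 of the 165 UMIs of mouse 5 each in 1 cell. With Trdc at 3 UMIs the difference from Control turned to −0.62 for Ccl4 and −2.07 for Xcl1. The growth factor gene Myc was more even, at 116, 306, 218, 161 and 242 CPM against 91.1, 42.2, 103 and 61.2 CPM in Control, without overlap (1.80 at 10 members a mouse, and 1.66 with edgeR adjusted p = 0.0405 at 5).

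The genes that set Trdc+ cells apart from αβ cells were read in all 4 libraries. Rbpms was read in 13% of members in RT + αPD-L1, 11% in RT, 11.9% in αPD-L1 and 20.3% in Control, and Ccr9 in 24.7%, 30.8%, 43.3% and 25.3% in the same order. Sox4 was read in 23.4%, 41.8%, 40.3% and 50.6% and Dntt in 3.9%, 11%, 10.4% and 15.2%. Neither Sox4 nor Dntt was called between treatments (Sox4 −2.12 ± 0.58 in RT + αPD-L1 against Control, edgeR adjusted p = 0.0895). The RT + αPD-L1 library also had the lowest δ V share of the 4, at 58.4%, and its part in these values was not tested.

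Whether treatments acted differently on Trdc+ cells than on αβ cells was tested with an interaction over 12487 genes. The response of Trdc+ cells exceeded that of αβ cells for 11 genes in RT + αPD-L1 (0.0881%) and fell short for 8 (0.0641%). The counts were 8 and 8 in RT (0.0641% each) and 12 and 4 in αPD-L1 (0.0961% and 0.032%), and many of these were V segments of α and β chains. DESeq2 called 1 gene in RT + αPD-L1 and none in RT or αPD-L1, where 158 and 228 genes had an unadjusted p under 0.05. None of 49 interferon-stimulated genes was called in the combination, which had 1 mouse, so that this does not show that the classes responded alike, with a median excess of 0.44 over these genes against 0.05 over all, with 387 genes over the whole table at an unadjusted p under 0.05 by edgeR and 1 called by DESeq2. None of 21 interferon-γ-inducible GTPases was called there either (median 0.35).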

How the data were processed

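Mouse cells were sequenced as 4 pooled libraries with 5 hashtag antibodies each. The deposited matrices hold raw UMI counts made by the authors with Cell Ranger (6.1.2 in the file headers, another version in the methods). The labels name a 3′ kit, whereas hashtags of this type are usually read with 5′ kits. Cells were kept by the limits above, given to a mouse where 1 hashtag stood above the emptiest bin of its own counts (the study used HTODemux, here an alternative), and summed per mouse and class at 10 members or more. Sums were tested with edgeR 4.0.16 (TMM, filterByExpr, quasi-likelihood) in R 4.3.3, tested first on simulated data. DESeq2 1.42.0, RLE scaling, no filter, other cell and Trdc minimums, Seurat 5.3.0 HTODemux, thinning to 3000 UMIs and leaving out each mouse were alternatives. V sequences were read from GRCm38 with GENCODE M21. Members, gene lists and tests were chosen with earlier results of these data known. Named were up to 6 called genes of each list with the largest change, the 12 largest rises and 8 largest falls at 20 CPM or more outside V segments and unnamed genes, the 10 genes detected most like Trdc, receptor genes and cell markers. Aqp3, Id2, Jun, Mki67 and Top2a were added after their values were seen. Hashtag numbers of different libraries mark different mice. Intervals cover counting error only, and PCR duplicates were collapsed by UMI. A few genes are not reported here.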

Additional observations from a re-analysis of the deposited data

Results flagged for a closer look

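The sum of interferon-γ-inducible GTPases in Trdc+ cells of Control mice had a highest mouse at 1651 CPM, far from the other 3, with a gap of 0.916 of the range, above Dixon's 95% critical value for 4 mice. Chance sets apart about 1 group in 20 by this measure.

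The response of Trdc+ cells differed from that of αβ cells in the same mice for the following genes by the interaction test of edgeR, in log2 units of excess over the αβ response. In RT + αPD-L1, which had 1 mouse, the excess was 3.68 for Ccl4, 2.91 for Xcl1, 1.91 for Myc, −3.97 for Ube2c, −3.43 for Eomes, −3.41 for Nrn1, −1.60 for Ly6a and −1.27 for Hmgb2. In that mouse 1 cell held 250 of 259 Ccl4 UMIs and 1 cell 266 of 284 Xcl1 UMIs. Fitted values of −11.88 for Ccnb2 and −11.76 for Cdc20 rest on 0 UMIs in that mouse and are no estimate of size.

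In RT the excess was 2.63 for S100a4, 2.01 for S100a6 and 1.19 for Ly6c2, and it was −4.47 for Ube2c, −4.21 for Cenpf, −4.20 for Kif11, −2.93 for Nrn1, −2.64 for Nrgn and −1.81 for Tnfrsf9. In αPD-L1 it was 4.24 for Ly6d, 2.55 for S100a4, 1.81 for S100a6, 1.75 for Ctla4, 1.52 for Itgb1 and 1.01 for Ifi27l2a, and it was −3.95 for Nrn1, −3.85 for Nrgn, −2.11 for Tnfrsf9 and −1.48 for Xcl1.

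S100a6, a calcium-binding protein of activated T cells, had 485, 932 and 168 CPM in Trdc+ cells of RT mice, 245, 593 and 558 CPM in αPD-L1 mice and 116, 59.1 and 114 CPM in Control mice 1, 2 and 5. Each of these RT and αPD-L1 mice stood above those Control mice, while Control mouse 3, with 7 members, had 258 CPM. The cell cycle and Nrn1 values rest on Control mouse 5, where 1 cell held 42 UMIs of Ube2c and 1 cell 43 UMIs of Nrn1. The Ly6d excess rests on 5 cells. The same Control mice serve in all 3 comparisons.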

How the results depend on the processing

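The number of genes higher in Trdc+ than in αβ cells (264) was 412 with DESeq2, 151 at 20 cells a mouse, 416 with Trdc at 1 UMI, 80 with Trdc at 3 UMIs, 117 after thinning and 216 to 256 without each mouse. The number lower (894) was 481 with RLE, 330 with DESeq2, 402 at 20 cells, 361 with Trdc at 3 UMIs and 772 to 918 without each mouse. Of the 1158 calls, 745 were shared with RLE and 556 with DESeq2.

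At 20 cells 5 mice remained, 2 of Control and 1 of each other treatment, so treatment counts there compare single mice. RT against Control (0) gave 23 without a filter, 8 at 20 cells, 3 with HTODemux and 0 to 3 without each mouse. αPD-L1 against Control (0) gave 18 without a filter, 18 at 20 cells, 5 with Trdc at 3 UMIs and 0 to 4 without each mouse. RT + αPD-L1 against Control (40) gave 1 with DESeq2, 89 without a filter, 95 at 20 cells, 10 at 5 cells, 21 with Trdc at 1 UMI, 18 at 3 UMIs and 32 to 48 without each of the 9 mice of the other groups. Combination mouse 3, which carries these calls, could not be left out at 10 cells. Against RT (46) it gave 2 with DESeq2, 76 without a filter, 71 at 20 cells, 2 at 5 cells, 11 with Trdc at 1 UMI, 16 at 3 UMIs and 22 (without RT mouse 5; 26 without RT mouse 3, 29 without RT mouse 2) to 51. Against αPD-L1 (27) it gave 1 with DESeq2, 83 without a filter, 42 at 20 cells, 0 at 5 cells and with Trdc at 1 UMI, 7 at 3 UMIs, 44 with HTODemux and 12 (without αPD-L1 mouse 4) to 37.

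The excess in RT (16) gave 0 with DESeq2, at 20 cells and with Trdc at 1 UMI, 1 at 3 UMIs and 6 (without Control mouse 5) to 21. In αPD-L1 (16) it gave 0 with DESeq2 and at 20 cells, 1 with Trdc at 1 UMI, 2 at 3 UMIs, 9 with HTODemux and 10 (without Control mouse 1) to 21. In RT + αPD-L1 (19) it gave 1 with DESeq2, 9 without a filter, 0 at 20 cells, 1 with Trdc at 1 UMI, 4 at 3 UMIs and 9 (without Control mouse 5; 10 without Control mouse 2) to 22.

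Signs turned for Fcer1g (−0.51), Tyrobp (−7.71), Ccl3 (−0.24) and Gzma (−0.82) in members without myeloid UMIs, where the Tyrobp value is fixed by leaving out every cell with a Tyrobp UMI and tests nothing, Tyrobp (−0.87) and Gzma (−1.94) with Trdc at 3 UMIs, Ccl3 (−0.33) and Klrg1 (0.41) with DESeq2, and Gzma (−1.33) in δ V members. RT + αPD-L1 against Control turned for Ccl4 (−0.62) and Xcl1 (−2.07) with Trdc at 3 UMIs and Xcl1 (−2.59) with HTODemux. Against RT, Xcl1 turned (−0.51 at 3 UMIs, −1.64 with HTODemux), and against αPD-L1, Ccl4 (−1.76) and Xcl1 (−0.92) with HTODemux. The excess turned in RT for S100a4 (−0.14, HTODemux) and Kif11 (0.10, Trdc at 3 UMIs), in αPD-L1 for Ly6d (−10.11, Trdc at 3 UMIs) and S100a4 (−0.38, HTODemux), and in RT + αPD-L1 for Ccl4 (−1.75) and Xcl1 (−1.21) at 3 UMIs, Xcl1 (−1.21) with HTODemux, and Ly6a (0.10) and Hmgb2 (0.06) with Trdc at 1 UMI. Where no cause follows from fewer cells or genes, the cause was not tested.

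None of the 5 share comparisons passed under any alternative, and RT minus Control turned to −0.0569 points with Trdc at 1 UMI. The fits on δ V members, on members without myeloid UMIs and at 5 cells a mouse were chosen after seeing the data. The γ V comparison was not run, since too few mice held both classes. No paired analysis was possible because hashtag numbers of different libraries mark different mice, and the mouse term pairs cell classes, not treatments.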
